A study of Mus musculus with 12 samples.

Results

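The enzymes and readers of DNA methylation were followed in airway macrophages (AMs) of the mouse, as transcripts of 9 genes chosen by name: Dnmt1, Dnmt3a, Dnmt3b and Uhrf1, which write or keep the mark, Tet1, Tet2, Tet3 and Tdg, which remove it, and Mbd2, which reads it. All 9 were among the 20551 genes of the count table, and all 9 were among the 13729 genes that passed the filter on low counts. Tet1 passed that filter only through its LPS libraries, so a difference between LPS and medium was built into its passing, and it is left out of the counts of members called and given no test of LPS against medium. AMs of Scnn1b-Tg and WT mice had been kept for 12 h in medium alone or with Pseudomonas aeruginosa lipopolysaccharide (LPS, 100 ng/ml). There were 4 groups of 3 libraries each, named by genotype and treatment (WT medium, Scnn1b-Tg medium, WT LPS and Scnn1b-Tg LPS).

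All mice were C57BL/6 and 6 weeks old. Scnn1b-Tg mice carry a transgene for the beta subunit of the epithelial sodium channel, driven by the club cell secretory protein promoter in the airway epithelium, and develop mucus obstruction, while WT littermates lack it. Each library came from a pool of 3 to 4 animals according to the labels (pools 16, 17 and 18 for WT and 17, 18 and 19 for Scnn1b-Tg), so variation between single animals was not seen. Both treatments were applied to cells of the same pool, with 1 library each. The date of library preparation split the pools into batch 1 (WT 16, WT 17 and Scnn1b-Tg 17) and batch 2 (WT 18, Scnn1b-Tg 18 and Scnn1b-Tg 19). The labels describe adherent cells from lung lavage, whereas the study's methods for sequencing describe cells sorted from digested lung, and which applied to these libraries could not be settled here.

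Libraries held 48.2 to 60.9 M deposited counts, and values are given as counts per M (CPM) after scaling. A library with at most 8 counts of a gene, about the worth of 3 reads, was taken to be at the floor, which was 0.137 to 0.163 CPM. All 10 listed AM markers were detected. Their summed level in medium was 11600 to 12400 CPM for WT and 13700 to 17100 CPM for Scnn1b-Tg libraries, and with LPS it was 8500 to 10500 and 10100 to 15300 CPM. The neutrophil markers analysed summed to 5.62 to 14.9 CPM over all libraries, T or NK cell markers to 1.57 to 2.67 CPM B cell markers to 0 to 1.12 CPM, monocyte markers to 47 to 159 CPM and the 2 eosinophil markers analysed to 0 to 0.246 CPM. The 3 erythroid markers analysed were at or under the floor in every library. Epithelial markers summed to 116 to 134 CPM in WT medium and 69.3 to 104 CPM in Scnn1b-Tg medium. The treatment labels were checked with Tnf, Cxcl1, Il1b, Il6 and Nfkbia, which rose with LPS in both genotypes, Tnf from 37.6 ± 8.3 to 1040 ± 150 CPM in WT (SD, n = 3 each).

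In mammals the methyl mark sits on the cytosine of CG dinucleotides. Dnmt3a and Dnmt3b place it on unmethylated DNA, whereas Dnmt1 copies it to the new strand after replication, guided by Uhrf1, which binds hemimethylated CG sites. Tet enzymes oxidise methylcytosine in a reaction that uses 2-oxoglutarate, and the glycosylase Tdg cuts out the further oxidised bases so that base excision repair can restore cytosine. Mbd2 binds methylated CG sites and belongs to a form of the NuRD corepressor complex. In macrophages Tet2 is known for a role in limiting inflammatory cytokine transcription, and Dnmt3a and Tet2 are known from clonal expansion of blood cells when mutated.

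Positions are on mm10 (GENCODE M21). Dnmt1 (ENSMUSG00000004099) lies on chromosome 9 at 20907209 to 20959888, minus strand, and Uhrf1 (ENSMUSG00000001228) on chromosome 17 at 56303321 to 56323486, plus strand. Dnmt3a (ENSMUSG00000020661) lies on chromosome 12 at 3806007 to 3914443, plus strand, and Dnmt3b (ENSMUSG00000027478) on chromosome 2 at 153649450 to 153687730, plus strand. Tet1 (ENSMUSG00000047146) lies on chromosome 10 at 62804570 to 62908996, Tet2 (ENSMUSG00000040943) on chromosome 3 at 133463679 to 133545139 and Tet3 (ENSMUSG00000034832) on chromosome 6 at 83362373 to 83459084, all on the minus strand. Tdg (ENSMUSG00000034674) lies on chromosome 10 at 82629828 to 82650799, plus strand. Counting ignored strand: 133 exonic bases of Dnmt3a also belong to its antisense gene Dnmt3aos, and 367 of Tdg to Glt8d2, which was at 0 in every library. The Tdg pseudogenes Tdg-ps (0.342 to 0.902 CPM) and Gm9855 (1.46 to 3.33 CPM) could share reads with Tdg, whose values are uncertain to that extent.

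Because CG sites are the substrate of this machinery, the promoters of its own genes are shown for Tet2 and Tdg, which rose with LPS in both genotypes, for Tet1, and for Dnmt1, which fell in Scnn1b-Tg AMs. The sequences are RefSeq windows (build GRCm38.p6) from 250 bases before to 50 after a gene's start, written 5′ to 3′ on the gene's own strand, with each CG in capitals.
Tet2, chr3:133544341-133544640, minus strand: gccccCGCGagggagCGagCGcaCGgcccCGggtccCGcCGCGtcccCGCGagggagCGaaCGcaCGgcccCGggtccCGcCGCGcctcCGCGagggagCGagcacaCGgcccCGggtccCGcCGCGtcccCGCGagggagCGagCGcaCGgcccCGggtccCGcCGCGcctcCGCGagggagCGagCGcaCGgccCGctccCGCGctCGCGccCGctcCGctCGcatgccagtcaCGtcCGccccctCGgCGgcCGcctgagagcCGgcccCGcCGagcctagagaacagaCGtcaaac
Tdg, chr10:82629588-82629887, plus strand: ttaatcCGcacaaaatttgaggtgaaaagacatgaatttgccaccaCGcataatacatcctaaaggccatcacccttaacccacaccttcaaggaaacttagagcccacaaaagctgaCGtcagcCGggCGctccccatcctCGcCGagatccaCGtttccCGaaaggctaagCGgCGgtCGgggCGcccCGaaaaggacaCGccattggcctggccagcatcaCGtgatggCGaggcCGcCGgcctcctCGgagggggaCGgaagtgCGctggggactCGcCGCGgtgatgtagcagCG
Tet1, chr10:62887275-62887574, minus strand: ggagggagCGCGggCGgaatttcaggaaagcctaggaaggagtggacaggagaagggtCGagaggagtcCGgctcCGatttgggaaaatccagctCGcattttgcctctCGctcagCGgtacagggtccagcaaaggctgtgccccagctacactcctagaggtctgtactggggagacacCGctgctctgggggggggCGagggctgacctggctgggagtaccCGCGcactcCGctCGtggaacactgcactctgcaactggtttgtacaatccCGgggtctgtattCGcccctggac
Dnmt1, chr9:20952574-20952873, minus strand: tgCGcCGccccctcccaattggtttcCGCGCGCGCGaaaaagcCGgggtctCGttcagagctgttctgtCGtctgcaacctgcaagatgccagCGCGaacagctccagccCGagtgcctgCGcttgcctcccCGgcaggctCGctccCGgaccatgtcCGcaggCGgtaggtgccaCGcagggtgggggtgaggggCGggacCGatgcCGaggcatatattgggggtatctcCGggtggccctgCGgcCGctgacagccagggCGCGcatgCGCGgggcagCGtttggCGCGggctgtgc
Of 32851 such windows outside the chromosome that carries Mbd2, with a median of 7 CG dinucleotides, 8 members had at least 1. The Tet2 window held 57 CG dinucleotides, more than 99.8% of all windows. Tdg held 26, Tet1 17 and the Dnmt1 window shown 33, while the other Dnmt1 windows held 12 and 2. Methylation of these windows and the start site in use were not analysed here. The letters GGGCGG, a binding sequence of Sp1, occurred on either strand in the windows shown of Tet2, Tet1 and Dnmt1 and in 35.7% of all windows. The NF-kB motif occurred on either strand in 5.8% of all windows and, among the members, in the Dnmt3b window alone. TGANTCA (AP-1) occurred in 7.81% of all windows and in no member window. CACGTG (E-box), in 7.15% of all windows, occurred in the Tdg window and in 1 of the Dnmt3a windows.

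Levels were compared between genes as CPM per kb of merged exons. Mbd2 stood highest at 29 ± 4.11 CPM per kb over the 12 libraries, followed by Dnmt1 at 13.9 ± 3.38 and Dnmt3a at 9.03 ± 2.04. Tdg followed at 3.49 ± 0.763, Uhrf1 at 1.86 ± 0.692, Tet3 at 1.56 ± 0.251, Tet2 at 0.944 ± 0.266 and Dnmt3b at 0.506 ± 0.0705 (SD over 12 libraries, which includes the treatment). Tet1 was lowest at 0.0128 ± 0.0155 CPM per kb. Library ranges of Mbd2 (21.2 to 32.7) and Dnmt1 (8.71 to 18.5) did not overlap, but those of Dnmt1 and Dnmt3a (6.85 to 13.1) did, as did those of Uhrf1 (0.996 to 3.33), Tet3 (1.1 to 1.91) and Tet2 (0.649 to 1.5).

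**Figure D1:**
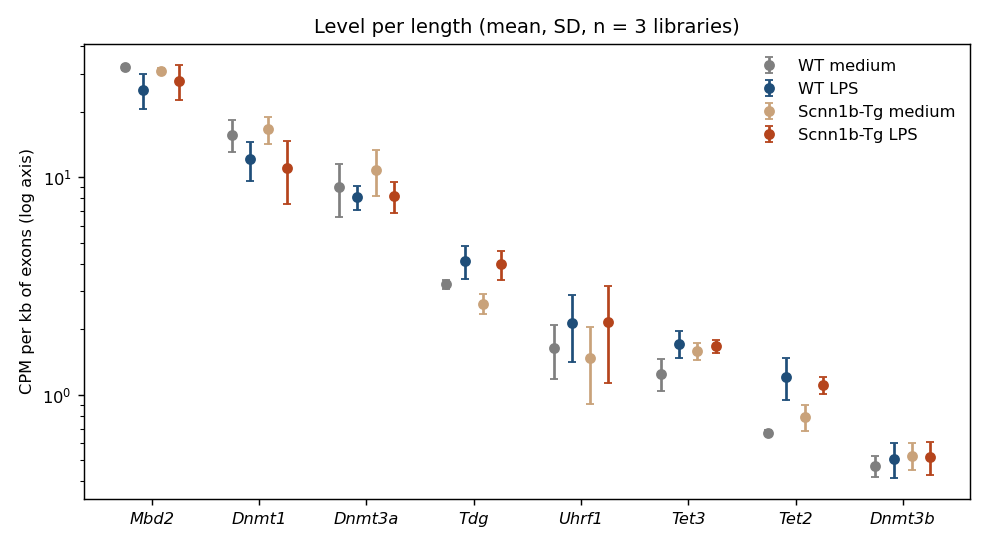
Level per exon length of 8 members (CPM per kb of merged exons, log axis) in the 4 groups, points for the mean and bars for the SD of 3 libraries. Tet1, at 0 in most medium libraries, is left out because a log axis has no zero. Mbd2 lies highest and Dnmt3b lowest of those shown.

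LPS was compared with medium in each genotype to ask how the machinery responds to a bacterial product. Tet2 and Tdg were higher with LPS in both genotypes, and Tet3 was higher in WT AMs. Dnmt1 fell and its partner Uhrf1 rose in Scnn1b-Tg AMs, with smaller differences of the same direction in WT AMs that did not pass. Dnmt3a, Dnmt3b and Mbd2 passed the test in neither genotype. In WT AMs 3 of the 8 members other than Tet1 passed an adjusted p of 0.05 in edgeR's quasi-likelihood test, 3 higher and 0 lower, where 31.8% of all genes tested passed, 15.5% higher and 16.2% lower. In Scnn1b-Tg AMs 4 of 8 passed, 3 higher and 1 lower, against 38.1% of all genes, 19.3% higher and 18.7% lower. The median log2 fold change of the 8 members was 0.225 in WT and 0.034 in Scnn1b-Tg AMs, beside 0.003 and -0.015 over all genes tested. Tet2 and Tdg, 2 of 8 members, passed in both genotypes, where 27.4% of all genes did. Of the 10 AM markers, 2 rose and 6 fell with LPS in WT AMs and 2 rose and 7 fell in Scnn1b-Tg AMs, Siglecf among those that fell (115 ± 5.13 to 11.1 ± 2.4 CPM in WT). The summed dendritic cell markers were 2.61 to 7.09 CPM in medium and 9.27 to 20.2 CPM with LPS, but they did not move together. Of the 4 tested, 2 rose and 1 fell in each genotype. Ccr7 rose by 1.76 in WT and 1.52 in Scnn1b-Tg AMs on the log2 scale, and Zbtb46 by 2.38 and 2.28. Clec9a, with at most 27 counts in a library, fell by 4.03 and 2.84, and Xcr1 did not pass. The summed epithelial markers, given above for medium, were 86 to 127 CPM in WT and 40.6 to 72.1 CPM in Scnn1b-Tg AMs with LPS. Of the 7 tested, 1 fell in WT and 2 in Scnn1b-Tg AMs, Krt19 by 1.87 and 2.82 on the log2 scale and Epcam by 1.37 in Scnn1b-Tg AMs. The part of these in the members' changes was not tested, and in bulk RNA fewer cells of a type and less RNA per cell cannot be told apart.

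**Figure D2:**
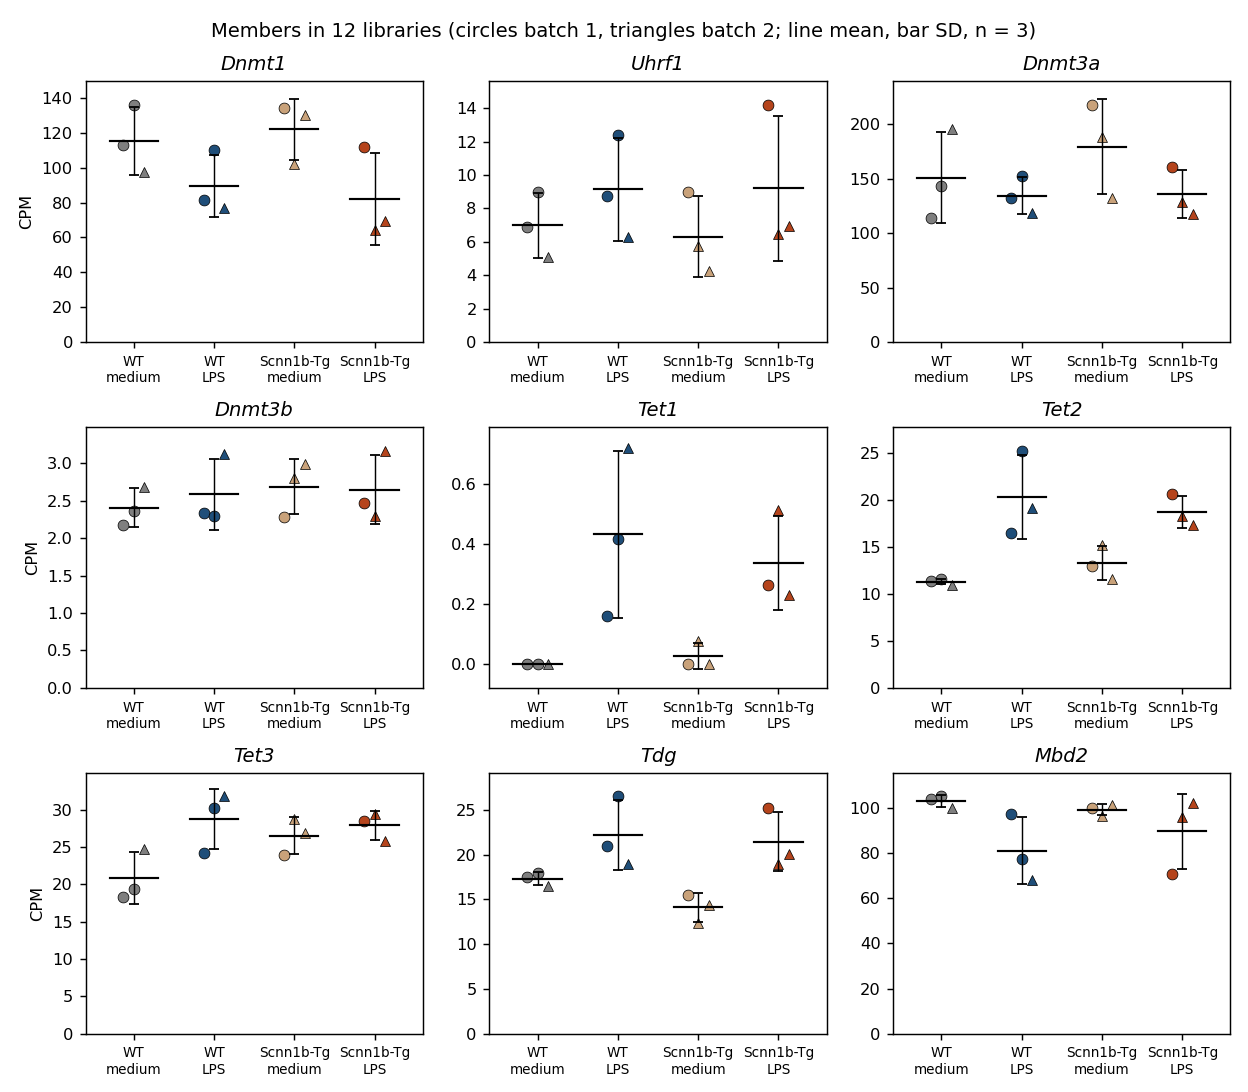
CPM of the 9 members in the 12 libraries by group, each panel with its own axis. Circles are batch 1 and triangles batch 2, lines the mean and bars the SD of 3 libraries. Tet2 and Tdg libraries with LPS all lie above the medium libraries of the same genotype, whereas Uhrf1 is set apart more by batch than by treatment.

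Tet2, the most responsive of the dioxygenases with enough reads for a fold, stood at 11.4, 11.6 and 11 CPM in the WT medium libraries of pools 16, 17 and 18 and at 16.5, 25.3 and 19.2 CPM in their LPS libraries. In Scnn1b-Tg AMs of pools 17, 18 and 19 it stood at 13, 15.2 and 11.6 CPM in medium and at 20.7, 18.3 and 17.4 CPM with LPS. Every LPS library thus lay above every medium library, in both genotypes. Tet2 rose 1.8-fold in WT AMs (log2 fold change 0.85 ± 0.156 SE, adjusted p = 0.00163) and 1.41-fold in Scnn1b-Tg AMs (0.50 ± 0.155, adjusted p = 0.0261). The rise held within batches: mean log2 differences were 0.81 in batch 1 and 0.78 in batch 2 for WT, and 0.65 and 0.41 for Scnn1b-Tg. In Scnn1b-Tg AMs the call was lost without the medium library of pool 17 (adjusted p = 0.109) or 19 (0.0975), without the LPS library of pool 17 (0.0972) or 18 (0.0593), and with library totals in place of TMM scaling (log2 fold change 0.39, adjusted p = 0.0658).

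Tet3, the dioxygenase with the highest level per length, stood at 18.3, 19.4 and 24.8 CPM in WT medium and at 24.2, 30.3 and 31.8 CPM in WT LPS. In Scnn1b-Tg AMs it was 23.9, 28.8 and 26.9 CPM in medium and 28.5, 29.5 and 25.8 CPM with LPS. The WT groups overlapped by 1 library, and the Scnn1b-Tg groups overlapped widely. Tet3 rose 1.39-fold in WT AMs (log2 fold change 0.47 ± 0.118 SE, adjusted p = 0.0103), by 0.52 within batch 1 and 0.35 within batch 2. In Scnn1b-Tg AMs the log2 fold change was 0.08 ± 0.117 (adjusted p = 0.623, 95% interval -0.18 to 0.34). The difference between the responses was -0.39 ± 0.167 on the log2 scale, with an unadjusted p of 0.0395 and an adjusted p of 0.818 by edgeR, so a different response of the genotypes was not shown.

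Tet1, a dioxygenase of embryonic cells, was barely present. It was at 0 counts in all 3 WT medium libraries and in the Scnn1b-Tg medium libraries of pools 17 and 19, with 4 counts in pool 18. With LPS it had 8, 24 and 38 counts in WT AMs and 15, 27 and 12 in Scnn1b-Tg AMs, or 0.16 to 0.718 and 0.228 to 0.514 CPM. No medium library was above the floor, and 2 of 3 WT and 3 of 3 Scnn1b-Tg libraries with LPS were, the WT LPS library of pool 16 being at it. Against the floor per library, the mean with LPS was at least 2.77-fold higher in WT AMs and at least 2.29-fold higher in Scnn1b-Tg AMs, a description with no test. These 5 libraries rest on few read pairs each, so the values run from undetected to just detected at this depth.

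Tdg, the glycosylase that acts after the Tet enzymes, stood at 17.5, 17.9 and 16.5 CPM in WT medium and at 21, 26.5 and 19 CPM in WT LPS. In Scnn1b-Tg AMs it stood at 15.5, 12.4 and 14.4 CPM in medium and at 25.2, 19 and 20.1 CPM with LPS. No LPS library overlapped a medium library. Tdg rose 1.51-fold in Scnn1b-Tg AMs (log2 fold change 0.60 ± 0.111 SE, adjusted p = 0.00143) and 1.28-fold in WT AMs (0.35 ± 0.111, adjusted p = 0.0325). The WT call was lost without the medium library of pool 16 (adjusted p = 0.103) or 17 (0.0965), without the LPS library of pool 17 (0.12) or 18 (0.0658), under library totals alone (0.0773), without the batch term (0.107) and with only the WT libraries in the fit (0.0634). The pseudogenes Gm9855 and Tdg-ps had means of 1.99 and 0.513 CPM over the medium libraries and 2.87 and 0.714 CPM over the LPS libraries, and their part in the Tdg values was not tested.

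Dnmt1, the maintenance methyltransferase, stood at 134, 102 and 130 CPM in Scnn1b-Tg medium and at 112, 64.3 and 69.3 CPM in Scnn1b-Tg LPS. In WT AMs it was 113, 136 and 97.3 CPM in medium and 81.7, 110 and 76.6 CPM with LPS. Groups overlapped in both genotypes, with the pool 17 libraries high in each, yet within every pool the LPS library was the lower one. Dnmt1 fell 1.53-fold in Scnn1b-Tg AMs (log2 fold change -0.61 ± 0.149 SE, adjusted p = 0.00727; -0.26 within batch 1, which holds 1 Scnn1b-Tg pool, and -0.79 within batch 2). In WT AMs the log2 fold change was -0.37 ± 0.149 with an adjusted p of 0.0861. With the pool as a fixed block, which compares the libraries of a pool with each other, the same WT fold change passed the test (-0.37, adjusted p = 0.0294). The Scnn1b-Tg call was lost without the batch term (adjusted p = 0.0646). The difference between the genotypes' responses was -0.25 ± 0.211 (adjusted p = 0.957).

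Uhrf1, which guides Dnmt1 to hemimethylated sites, stood at 8.97, 5.74 and 4.24 CPM in Scnn1b-Tg medium and at 14.2, 6.45 and 6.96 CPM in Scnn1b-Tg LPS. In WT AMs it was 6.91, 8.98 and 5.1 CPM in medium and 8.73, 12.4 and 6.29 CPM with LPS. Its level followed the batch: batch 1 libraries held 6.91 to 14.2 CPM and batch 2 libraries 4.24 to 6.96 CPM (log2 difference of batch 2 from batch 1 -0.84 ± 0.132 SE, adjusted p = 0.00561), and Dnmt1 was lower in batch 2 too (-0.41 ± 0.111, adjusted p = 0.0344). Uhrf1 rose 1.43-fold with LPS in Scnn1b-Tg AMs (log2 fold change 0.51 ± 0.178 SE, adjusted p = 0.0408). In WT AMs the log2 fold change was 0.38 ± 0.178 (adjusted p = 0.133), which passed with the pool as a fixed block (0.38, adjusted p = 0.0463). The Scnn1b-Tg call was lost without the medium library of pool 17 (adjusted p = 0.112) or 19 (0.14), without the LPS library of pool 17 (0.189) or 19 (0.0739), without the WT medium library of pool 17 (0.0501) or the WT LPS library of pool 18 (0.0554), without the batch term (0.311) and under library totals alone (0.0868).

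Dnmt1 and Uhrf1 are both tied to DNA replication, so a list of 24 proliferation genes was set beside them. In WT AMs 0 of 24 rose and 9 fell with LPS, with a median log2 fold change of -0.35, and in Scnn1b-Tg AMs 2 rose and 9 fell, with a median of -0.30. Of all genes tested, 15.5% were higher and 16.2% lower in WT and 19.3% and 18.7% in Scnn1b-Tg AMs, with medians of 0.003 and -0.015. Ccnb2, a mitotic cyclin, fell by 1.18 on the log2 scale in each genotype, and Mcm3, a subunit of the replicative helicase, fell by 0.57 in WT and 0.53 in Scnn1b-Tg AMs. Others went the other way. Within pools, log2 CPM of Mcm5, another subunit of that helicase, was higher with LPS in 6 of 6, by a mean of 0.50 ± 0.33 (SD). That of Ccne1, another cyclin, was higher in 5 of 6 pools (0.50 ± 0.375). The summed level of the list in medium was 374 to 483 CPM for WT and 358 to 484 CPM for Scnn1b-Tg libraries, against 276 to 409 and 294 to 428 CPM with LPS, and the pool 17 libraries were the highest of each group. Under LPS Dnmt1 moved with the median of the list and Uhrf1 against it, as some listed genes did. Both were high in pool 17, as the summed list was, and the part of cell division in these values was not tested.

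Dnmt3a, the main de novo methyltransferase of blood cells, had the highest CPM of the 9 and spread widely between pools of 1 group. It stood at 114, 143 and 196 CPM in WT medium and at 218, 188 and 132 CPM in Scnn1b-Tg medium. With LPS it was 132, 153 and 119 CPM in WT and 161, 129 and 118 CPM in Scnn1b-Tg AMs. All groups overlapped, and the WT pools did not move in 1 direction. The log2 fold change with LPS was -0.17 ± 0.218 SE in WT (adjusted p = 0.6) and -0.40 ± 0.217 in Scnn1b-Tg AMs (adjusted p = 0.182), where it passed the threshold in 1 of 24 alternative fits, without the WT medium library of pool 18 (-0.38, adjusted p = 0.0487). Dnmt3b, the other de novo enzyme, held 2.17 to 3.17 CPM (116 to 167 counts) in all libraries, with a log2 fold change of 0.10 ± 0.162 for WT (95% interval -0.26 to 0.46) and -0.02 ± 0.158 for Scnn1b-Tg (-0.37 to 0.33).

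Dnmt3aos, transcribed antisense to Dnmt3a (ENSMUSG00000073242, chromosome 12, 3859293 to 3862244, minus strand), was looked at because it overlaps the member, and is described after its values were seen. It stood at 20.3, 20.5 and 24.1 CPM in WT medium and at 4.67, 3.96 and 4.68 CPM in WT LPS. In Scnn1b-Tg AMs it was 18.1, 23.8 and 22.9 CPM in medium and 3.36, 4.18 and 2.69 CPM with LPS. Medium and LPS libraries lay far apart, whereas those of Dnmt3a overlapped. Dnmt3aos fell by 2.28 ± 0.149 on the log2 scale in WT (SE, adjusted p = 8.68e-07) and by 2.65 ± 0.153 in Scnn1b-Tg AMs (adjusted p = 2.18e-07), and it passed the test in all 48 alternative fits of these comparisons. Because strand was not used in counting, reads of the Dnmt3a strand in this stretch and reads of Dnmt3aos cannot be told apart.

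Mbd2 (ENSMUSG00000024513, chromosome 18, 70568189 to 70626131, plus strand), a reader of methylated CG, stood at 104, 105 and 100 CPM in WT medium and at 97.1, 77.4 and 68.1 CPM in WT LPS. In Scnn1b-Tg AMs it was 100, 96.5 and 101 CPM in medium and 70.5, 95.9 and 102 CPM with LPS. The WT groups did not overlap, while in Scnn1b-Tg AMs 1 of 3 pools was low with LPS. The log2 fold change was -0.35 ± 0.147 SE in WT AMs (adjusted p = 0.097), which passed with the pool as a fixed block (-0.37, adjusted p = 0.0448), and -0.15 ± 0.147 in Scnn1b-Tg AMs (adjusted p = 0.458). With the pool as a fixed block, 6 of the 8 members other than Tet1 passed in WT AMs, among them Dnmt1, Uhrf1 and Mbd2, against 3 without it, but the share of all genes called rose as well, to 38.1% from 31.8%. In Scnn1b-Tg AMs 4 of 8 passed, as without the block, where 44.4% of all genes did.

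Groups that did not overlap between LPS and medium were seen for 3 of these 8 members in WT AMs (Tet2, Tdg and Mbd2), where 38.7% of all genes tested showed this, and for 2 of 8 in Scnn1b-Tg AMs (Tet2 and Tdg), against 43.8% of all genes.

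The LPS change was then taken within each pool, as the log2 CPM of the LPS library minus that of the medium library. Dnmt1 was lower with LPS in 6 of 6 pools, by a mean of -0.49 ± 0.25 (SD). Uhrf1 (0.44 ± 0.214), Tet2 (0.66 ± 0.291) and Tdg (0.47 ± 0.196) were higher in 6 of 6 pools, which makes 4 of 8 members with 1 direction in all pools, where 48.9% of all genes tested had this. For these 4 the two-sided exact sign-flip permutation test gave p = 0.03125, the smallest that 6 pools allow. Tet3 was higher in 5 of 6 pools (0.27 ± 0.257, exact p = 0.09375), and Mbd2 was lower in 5 of 6 (-0.27 ± 0.261, exact p = 0.0625). Dnmt3a was lower in 4 of 6 (-0.26 ± 0.37, exact p = 0.1875), and Dnmt3b had no common direction (0.03 ± 0.173, exact p = 0.625). With 8 members tested and this smallest p, none would pass a correction over the members.

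**Figure D3:**
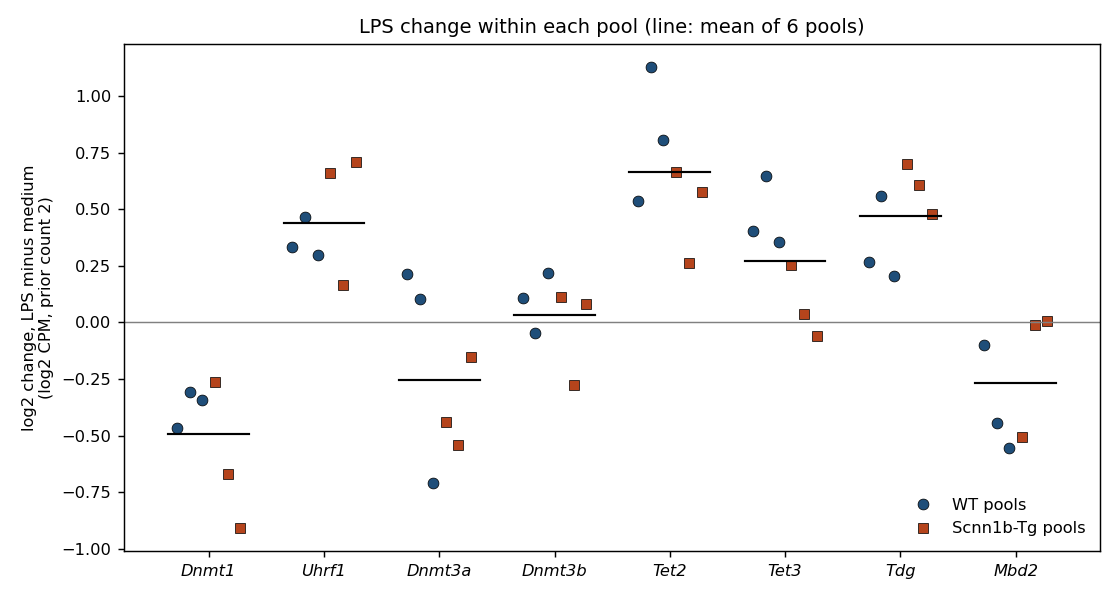
Change of log2 CPM with LPS in each of 6 pools for 8 members, circles for WT and squares for Scnn1b-Tg pools, lines for the mean of 6. Dnmt1 lies below 0 and Uhrf1, Tet2 and Tdg above 0 in all 6 pools. Tet1 is left out because its change rests on the prior count.

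Ratios of counts inside a library do not depend on its scaling. The ratio of Dnmt1 to Uhrf1 counts was 16.9 ± 1.99 in WT medium and 10.1 ± 1.79 in WT LPS, and 21.1 ± 8.37 in Scnn1b-Tg medium and 9.26 ± 1.2 in Scnn1b-Tg LPS (SD, n = 3 libraries each). All 6 medium libraries (15 to 30.7) lay above all 6 LPS libraries (7.87 to 12.2). The ratio was lower with LPS by a mean of -0.94 ± 0.349 on the log2 scale, with means of -0.84 in batch 1 and -1.04 in batch 2. Since Dnmt1 was lower and Uhrf1 higher in each of the 6 pools, the ratio had to be lower in each, so it is a description of the same values and is given no test.

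The ratio of Dnmt3a, a writer, to Tet2, an eraser, was 13.4 ± 4.03 in WT medium and 6.76 ± 1.08 in WT LPS, and 13.5 ± 2.89 in Scnn1b-Tg medium and 7.21 ± 0.509 in Scnn1b-Tg LPS. Medium libraries (10 to 17.9) all lay above LPS libraries (6.06 to 8.01). The ratio was lower with LPS in 6 of 6 pools, by a mean of -0.92 ± 0.404 on the log2 scale, with -0.82 in batch 1 and -1.02 in batch 2. Tet2 was higher in all 6 pools and Dnmt3a lower in 4, so the ratio had to be lower in those 4. It largely restates the rise of Tet2 and is given no test of LPS against medium. Between the genotypes the ratios overlapped. The exact permutation p of Scnn1b-Tg against WT was 1 in medium and 0.6 with LPS for Dnmt3a to Tet2, and 0.7 and 0.6 for Dnmt1 to Uhrf1, where 0.1 is the smallest that 3 against 3 libraries allow. These ratios shift with any change of either gene and were not normalised for length.

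**Figure D4:**
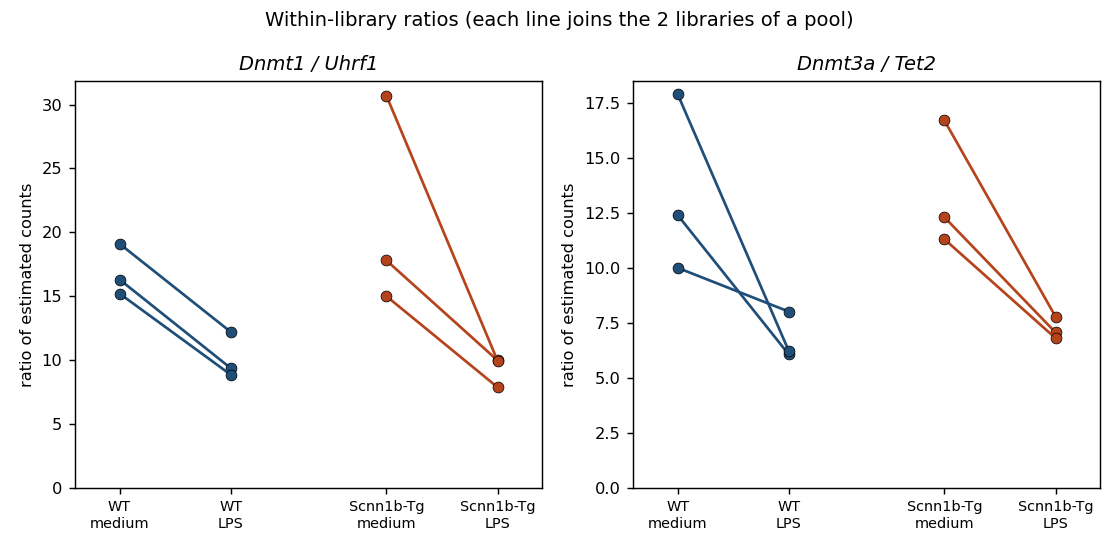
Ratio of estimated counts of Dnmt1 to Uhrf1 (left) and of Dnmt3a to Tet2 (right) in medium and LPS libraries, each line joining the libraries of 1 pool, for WT and Scnn1b-Tg. Every line falls from medium to LPS, with medium points at 15 to 30.7 and LPS points at 7.87 to 12.2 on the left, and 10 to 17.9 and 6.06 to 8.01 on the right.

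Scnn1b-Tg and WT AMs were compared to ask whether mucus obstruction moves the machinery. In medium 0 of the 8 members other than Tet1 passed, where 0.335% of all genes did. Tet3 came nearest, at 20.8 ± 3.51 CPM for WT and 26.5 ± 2.47 CPM for Scnn1b-Tg AMs (log2 fold change 0.29 ± 0.121 SE, unadjusted p = 0.0369 and adjusted p = 0.333 by edgeR), and it was the 1 member with an unadjusted p under 0.05. Tet2 and Tdg did not overlap between the genotypes in medium, with Tet2 higher and Tdg lower in Scnn1b-Tg AMs. These were 2 of the 8 members, where 18.4% of all genes did not overlap. Their log2 fold changes were 0.27 ± 0.162 (adjusted p = 0.517) and -0.22 ± 0.115 (adjusted p = 0.458). For Dnmt1 the 95% interval of the log2 difference was -0.11 to 0.57, for Dnmt3a -0.22 to 0.75, for Uhrf1 -0.30 to 0.52 and for Mbd2 -0.39 to 0.28. With 3 pools a group the data thus do not exclude differences inside these bounds. The summed epithelial markers were lower in Scnn1b-Tg than in WT medium (mean 87.9 against 128 CPM, with 0 of 7 called). Ccr7, listed as a dendritic cell marker, was called higher in Scnn1b-Tg medium (5.01 ± 0.819 against 2.02 ± 0.268 CPM, adjusted p = 0.042 by edgeR). It was the 1 called of the 4 dendritic cell markers tested. Of the others, Zbtb46 stood at 0.34, Xcr1 at -0.25 and Clec9a at -0.17 on the log2 scale. The part of these markers in this comparison was not tested.

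With LPS, 0 of the 8 members other than Tet1 passed between the genotypes, where 0.051% of all genes did. Of these, 0 of 8 had an unadjusted p under 0.05, and 0 of 8 did not overlap, where 9.11% of all genes did not. The 95% intervals were -0.36 to 0.31 for Dnmt1, -0.43 to 0.26 for Tet2, -0.37 to 0.16 for Tet3 and -0.22 to 0.28 for Tdg on the log2 scale. The summed epithelial markers with LPS averaged 112 CPM for WT and 56.4 CPM for Scnn1b-Tg libraries (0 of 7 called), and their part was not tested either. In the test of the difference between the LPS responses 0 of these 8 members passed, where 0% of all genes did, and Tet3 alone had an unadjusted p under 0.05. DESeq2 also called 0 of these 8 members in each of these 3 comparisons. The genotype and interaction contrasts share libraries with the LPS contrasts and are not separate evidence.

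The wider pathway was read from a list of other methylation genes, of which 55 were in the table and 54 were tested. In WT AMs 7 rose and 11 fell with LPS, and in Scnn1b-Tg AMs 6 rose and 13 fell, with medians of -0.07 and -0.14 on the log2 scale. Of all genes tested, 15.5% were higher and 16.2% lower in WT, and 19.3% and 18.7% in Scnn1b-Tg AMs. The genes called in both genotypes were 13 (24.1%), 4 higher and 9 lower, below the 27.4% of all genes given above. Between the genotypes 0 of 54 passed in medium and 0 of 54 with LPS.

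Dnmt3l, a catalytically inactive partner that stimulates de novo methyltransferases and is best known from germ cells, had the largest change of the list. It stood at 6.45, 2.59 and 5.18 CPM in WT medium and at 32.5, 17.1 and 31.1 CPM in WT LPS. In Scnn1b-Tg AMs it was 2.09, 2.81 and 2.41 CPM in medium and 20.3, 20.4 and 26 CPM with LPS. The groups lay far apart in both genotypes, whereas those of Dnmt3a and Dnmt3b, the enzymes it acts on, overlapped. Dnmt3l rose 5.63-fold in WT (log2 fold change 2.49 ± 0.301 SE, adjusted p = 8.46e-05) and 9.15-fold in Scnn1b-Tg AMs (3.19 ± 0.32, adjusted p = 1.49e-05).

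The Gadd45 proteins, stress sensors that have been linked to active demethylation, moved in both directions. Gadd45b rose 4.67-fold in WT and 5.87-fold in Scnn1b-Tg AMs, from 36.6 to 56.3 CPM in the 6 medium libraries to 160 to 273 CPM with LPS. Gadd45g fell 2.45-fold in WT and 2.13-fold in Scnn1b-Tg AMs, from 273 to 421 CPM down to 94.4 to 211 CPM. Gadd45a rose 1.36-fold and 1.29-fold (adjusted p = 0.0264 and 0.0457). Apobec1, a cytidine deaminase, fell 1.32-fold and 1.54-fold.

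Among the genes that make or use the cofactors, Mat2a, the catalytic subunit of the enzyme that makes S-adenosylmethionine, rose 1.91-fold in WT and 2.02-fold in Scnn1b-Tg AMs. Its libraries held 182 to 240 CPM in medium and 361 to 489 CPM with LPS. Mat2b, its regulatory subunit, fell 1.28-fold and 1.21-fold. Idh1, the cytosolic enzyme that makes 2-oxoglutarate, fell 1.83-fold and 2.09-fold, from 441 to 564 CPM in medium to 220 to 274 CPM with LPS. D2hgdh, which clears the Tet inhibitor D-2-hydroxyglutarate, fell 1.72-fold and 1.9-fold. Among readers and NuRD subunits, Zbtb38, a zinc-finger protein that binds methylated DNA, fell 1.74-fold and 1.68-fold, and Mta3 fell 1.27-fold and 1.41-fold. The other 9 NuRD subunits did not pass in WT AMs. Hdac2, a histone deacetylase, rose by 0.37 on the log2 scale in Scnn1b-Tg AMs (adjusted p = 0.031), and within pools it was higher with LPS in 6 of 6.

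**Figure D5:**
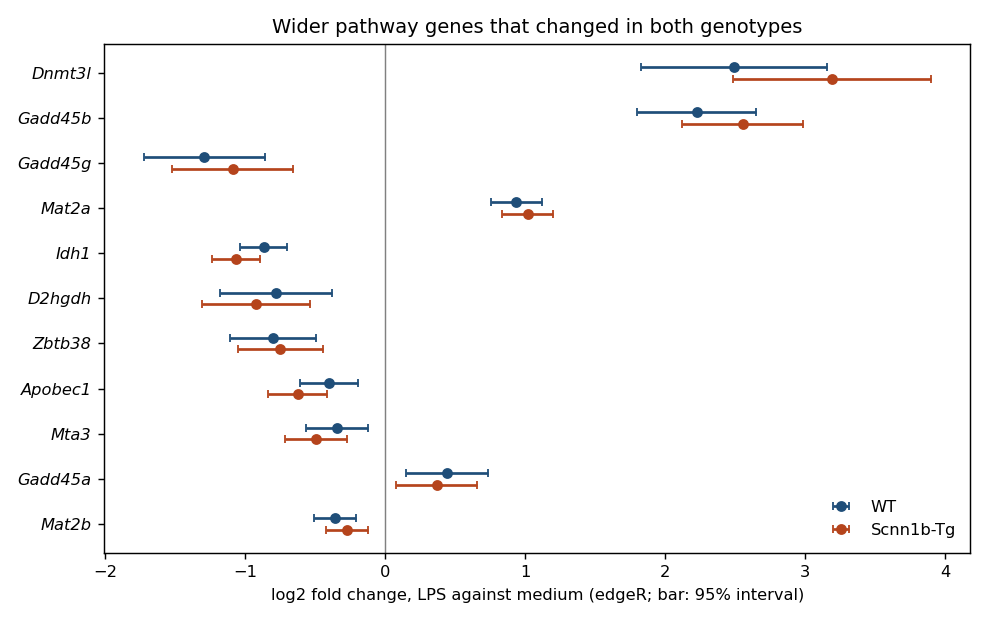
Log2 fold change of LPS against medium for the 11 wider pathway genes that changed in both genotypes and averaged at least 5 CPM, with 95% intervals from the edgeR fit, blue for WT and red for Scnn1b-Tg. Dnmt3l and Gadd45b lie furthest to the right and Gadd45g furthest to the left, and intervals of the genotypes overlap for each gene.

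The list of 12 base excision genes held other glycosylases beside genes that act after Tdg. In WT AMs 1 rose and 3 fell, and in Scnn1b-Tg AMs 0 rose and 5 fell, with medians of -0.30 and -0.33. Of all genes, 15.5% were higher and 16.2% lower in WT and 19.3% and 18.7% in Scnn1b-Tg AMs. The falls were the glycosylases Neil2, Neil3 and Nthl1 in WT, and Mbd4, Neil1, Neil2, Nthl1 and Xrcc1 in Scnn1b-Tg AMs. Mbd4, Neil2, Neil3 and Nthl1 averaged under 5 CPM. Apex1, Polb and Parp1, which act after a glycosylase, passed in neither genotype. Lig3, a DNA ligase of this repair, was the 1 that rose, by 0.62 ± 0.19 on the log2 scale in WT AMs (SE, adjusted p = 0.028), and stood at 0.26 ± 0.189 in Scnn1b-Tg AMs (adjusted p = 0.319). Xrcc1, the scaffold of this repair, fell by 0.46 ± 0.0834 on the log2 scale in Scnn1b-Tg AMs (SE, adjusted p = 0.0012), and stood at -0.23 ± 0.0836 in WT AMs (adjusted p = 0.0605). Of the 6 maintenance partners, Uhrf2, a relative of Uhrf1, fell by 0.52 in WT AMs (adjusted p = 0.0204). It did not pass in Scnn1b-Tg AMs, and within pools it was lower with LPS in 5 of 6. Cdca7, which recruits the remodeller Hells, rose by 0.94 in Scnn1b-Tg AMs (adjusted p = 0.00382). It averaged 2.78 CPM and did not pass in WT AMs, but within pools it was higher with LPS in 6 of 6. Hdac2, Uhrf2, Cdca7 and the base excision genes were named after their values were seen.

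For each member the genes with the most similar pattern were found as the highest Pearson r of log2 CPM over the 12 libraries among 9101 genes. These libraries share the treatment, pools and batches, so the values only describe. For Tet2 they were Med13l (r = 0.975), Abcc5 (0.958) and Csf2rb (0.947), for Tdg Nsun2 (0.984), Armc8 (0.978) and Sae1 (0.977), and for Tet3 Oas2 (0.93), Safb2 (0.9) and Lgals9 (0.889). For Dnmt1 they were Esyt2 (0.979), Myof (0.979) and Ano6 (0.977), and for Uhrf1 ENSMUSG00000091747 (0.968), Gtf2a1 (0.967) and Mief1 (0.957). Dnmt3a was most like Fut8 (0.869), Gpr89 (0.823) and Ythdc2 (0.82), Dnmt3b like Mtfmt (0.878) and Zfp61 (0.839), and Mbd2 like Twf2 (0.918) and Phospho2 (0.881). The sparse counts of Tet1 were most like Pnn (0.982), Slfn10-ps (0.959) and Nfkbid (0.958). These r rest on the prior count in the medium libraries, where Tet1 was at or under the floor, so its r with other members is left out. Within the 8 others, the highest r were those of Uhrf1 with Tdg (0.765), Tet2 with Tet3 (0.721) and Tet2 with Tdg (0.714). The lowest were those of Mbd2 with Tet2 (-0.755) and Mbd2 with Tet3 (-0.671). Dnmt1 and Uhrf1 had r = 0.184.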

How the data were processed

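RNA of 12 libraries of AMs was measured by SMART-Seq v4 sequencing in 4 groups of 3, taken from the labels. The authors deposited estimated counts per gene: per the study's methods, the nf-core RNAseq pipeline 1.2 aligned reads to mm10 with HISAT2 without strand, and StringTie with GENCODE M20 turned coverage into whole-number counts, so that low values rise in steps of more than 1 count per read (of 47985 values from 1 to 30, 55.3% were 0 or 3 modulo 5). Default parameters were otherwise stated. Floors cover counting error only, while the intervals of fold changes come from the fit and include the spread between libraries.

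Gene names came from GENCODE M21, in which 20158 of 20551 IDs were found. Counts were fitted with edgeR 4.0.16 in R 4.3.3: filterByExpr (minimum count 10, minimum total 15) left 13729 genes, TMM scaling, 1 quasi-likelihood model over all libraries with terms for group and batch, and Benjamini-Hochberg adjustment over all genes tested with a threshold of 0.05. The study's methods used DESeq2 with the batch, which is an alternative here, as are limma 3.58.1 (voom) with the pool as a random effect, other scalings and filters, and leaving out each library. The older quasi-likelihood settings of edgeR were added after the data were seen. The LPS change by pool used log2 CPM with prior count 2 and a two-sided exact sign-flip test. Within-batch values used log2 of CPM plus 0.5. The ratio of 2 genes' counts within a library used exact permutation tests between the genotypes. The script was tested on simulated data. The NF-kB motif was widened after a stricter form had matched no member window, and a motif of E2F, also without a match, was dropped. Replicates are pools of 3 to 4 animals, and p-values of the main fit rest on the spread between libraries of a group, each from another pool. That fit treats the medium and LPS libraries of a pool as independent. Fits with the pool as a block and the sign-flip tests use the spread of the changes within pools. The medium and LPS libraries of a pool come from the same pooled cells by their number in the titles, so fits with the pool as a block were read as paired fits. Their deviations from the group means had a correlation of 0.137 to 0.335 in the 6 pools (-0.242 to 0.151 once the batch was taken out). Libraries of the 2 genotypes that share a number and a treatment had 0.11 to 0.261, so the correlation does not show the pairing.

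The members and lists were chosen with earlier results of these data known. Named were all 9 members, the genes of the wider list called in both genotypes with a mean of at least 5 CPM (at most 15), and for each member the 3 most similar genes, of which some are not reported here. Of the listed genes, Dnmt3c, Cxxc4 and 9 cell type markers were not analysed here.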

Additional observations from a re-analysis of the deposited data

How the results depend on the processing

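Each comparison was refitted under other scalings, filters, tools, blocks and without each library. Members called between the genotypes, and in the difference of the LPS responses, were 0 of 8 without Tet1 under every alternative run. The counts that follow are of the 8 members other than Tet1, and the share of all genes called in the same fit stands beside each. In WT AMs, where 3 of 8 members passed (31.8%), the count was 2 with only the libraries compared (25.7%). With the pool as a replicate block the count was 6, both as a random effect (38.6%) and as a fixed block (38.1%). The pairing changed no other call of a member in the comparisons it could be fitted to, 5 as a random effect and 3 as a fixed block. Using the shared pool number instead of the batch gave 5 in WT (38.7%) and 4 in Scnn1b-Tg AMs (45.0%). In Scnn1b-Tg AMs, where 4 of 8 passed (38.1%), the count was 2 under library totals alone (39.7%) and 2 without a batch term (32.2%). Leaving out 1 library at a time gave 2 to 5 members in WT (23.7% to 31.1%) and 2 to 5 in Scnn1b-Tg AMs (30.4% to 39.2%). In Scnn1b-Tg AMs the 2 were seen without the medium library of pool 17 or 19 or the LPS library of pool 17. Tet2 and Tet3 in WT AMs and Tdg in Scnn1b-Tg AMs passed under all 24 alternatives, Tet2 in Scnn1b-Tg AMs under 19, Tdg in WT AMs under 17 and Uhrf1 in Scnn1b-Tg AMs under 16. Without the WT LPS library of pool 16, Uhrf1 (adjusted p = 0.0397) and Mbd2 (0.0199) passed in WT AMs. No called member changed its sign. Tet1 did not pass the filter at a mean of at least 50 counts, with counts divided by 5 or, in WT AMs, with only the libraries compared, where Tdg lost its call as well. Library totals alone moved the median log2 fold change of all genes to -0.08 in WT and -0.117 in Scnn1b-Tg AMs and the share of called genes that were higher from 48.9% to 38.7% and from 50.8% to 38.9%, and under them Dnmt1 and Mbd2 passed in WT AMs (adjusted p = 0.0359 and 0.0373). Members with 1 direction in every pool were 4 without Tet1 and 5 with it, though its difference was built into its passing. Of all genes tested, 48.9% had 1 direction in every pool. With Tet1 they were 5 to 7 when 1 pool was left out. Fewer pools make 1 direction easier to meet for any gene, and the share of all genes for this is not reported here. The mean log2 change of the Dnmt1 to Uhrf1 ratio was -0.994 to -0.798 without 1 pool, and -0.836 within batch 1 and -1.036 within batch 2; for Dnmt3a to Tet2 it was -1.039 to -0.799, -0.819 and -1.02. These changes of the ratios are given no test. By the longest transcript, 7 members in place of 6 averaged at least 1 CPM per kb, and Tet3 stood above Uhrf1. DESeq2 called 501 genes between the genotypes in medium where edgeR called 46, 146 against 7 with LPS, and 77 against 0 in the difference of responses, none of them a member. Depth limits Tet1, which had at most 38 counts in a library.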
